A study of Mus musculus with 7 samples.

Results

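Semaphorins are guidance ligands, and plexins and neuropilins are the receptors that read them. The family was taken as every gene of the expression table whose symbol begins with Sema3 to Sema7 or with Plxna, Plxnb, Plxnc or Plxnd, or is Nrp1 or Nrp2, which gave 31 of 18145 genes. These were 20 ligands, of which 7 were secreted class 3 semaphorins and 13 membrane-bound semaphorins of classes 4 to 7, and 11 receptors, namely 9 plexins and 2 neuropilins. All 31 passed the filter on low values and were tested.

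Class 3 semaphorins are secreted and most bind a neuropilin, which has no signalling domain of its own and passes the signal to a plexin of the A class. Sema3a acts mainly through Nrp1 and Sema3f through Nrp2, whereas Sema3e binds Plxnd1 directly. Membrane-bound semaphorins bind plexins without a neuropilin, for example Sema4d with Plxnb1, Sema4c with Plxnb2, Sema6a with Plxna2 and Plxna4, and Sema7a with Plxnc1. Plexins act on small GTPases and through them on the cytoskeleton and on integrin adhesion. In the developing nervous system the family steers growing axons and migrating neurons, and it also acts in blood vessels and in neural crest cells.

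The libraries came from neural stem cells (NSCs) of the mouse at passage 1. There were 3 wild-type lines (WT), 2 lines of the genotype Tet-TFoCa (TFoCa; the design text writes Tet-FoCa) and 2 of the genotype Tet-TMut (TMut), with 1 library for each line. The labels give no treatment, age or strain, do not describe the Tet alleles, and do not say whether a line is 1 clone. TET enzymes oxidise 5-methylcytosine to hydroxymethyl-, formyl- and carboxylcytosine, and the title of the study sets the first of these products against the other two. Summed gene counts lay between 33340167 and 62545457 for a library. Values below are counts divided by the authors' size factor of the library (normalized counts), and fold changes are differences of log2(normalized count + 1) with their standard error (SE), which understate the change of genes with low counts. They come from 1 limma fit over all 18134 genes tested, with n = 3 WT, 2 TFoCa and 2 TMut, and genes with an adjusted p (Benjamini-Hochberg, over all genes tested) below 0.05 were called. The p values measure the spread between lines, of which each mutant genotype has 2. This spread was pooled over the 3 genotypes and drawn toward that of genes of like level. Lines outside a comparison therefore enter its p values, and a call can change with them at the same fold change.

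The labelled cell type was checked on marker genes. All 12 neural stem cell markers were measured, with a summed normalized count of 190332 to 194684 in WT, 157360.0 to 171995 in TFoCa and 133035 to 158820.0 in TMut. In TMut 9 of the 12 fell and 1, Vim, rose against WT, and in TFoCa 2 fell. Vim was the largest term of each sum, with 65556, 66949 and 70733 in WT, 84912 and 88637 in TFoCa, and 113661 and 101256 in TMut. Its rise in TMut offset part of the falls in the sum. The median log2 fold change of the 12 against WT was -0.65 in TFoCa and -1.80 in TMut. Markers of other cell types moved too. Over 8 neuronal markers the sum was 54456 to 58537 in WT, 41957 to 43119.5 in TFoCa and 8589 to 14726 in TMut, where all 8 fell. Over 10 mesenchymal markers it was 143007 to 156407, 370992 to 426475 and 199422 to 289260.0; 9 of them rose in TFoCa, and 4 rose and 2 fell in TMut. Over 7 pluripotency markers it was 8868 to 18278, 819 to 1065 and 8680.2 to 31898, over 6 epithelial markers 3192 to 5507, 2747 to 3809 and 9680.0 to 21642, and over 7 endothelial markers 1492 to 2172, 514 to 1490.4 and 1730.0 to 2580.1. Over 6 neural crest markers it was 3122 to 3732, 4054 to 9082 and 6326 to 7248, with Ets1 and Snai2 higher in both mutant genotypes. Sox10, Foxd3, Tfap2a and Tfap2b were not called in either genotype against WT. Their log2 fold changes ran from -1.50 (Foxd3) to 1.45 (Sox10) in TFoCa and from -1.25 (Tfap2b) to 1.69 (Sox10) in TMut. The largest term was Tfap2b in TFoCa replicate 2 (5399) and Ets1 in both TMut libraries (4015 and 4565). TMut replicate 2 held the upper pluripotent and epithelial values. No marker measured was at 0 in any library. In these bulk samples fewer cells of a type and less RNA per cell cannot be told apart.

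TET enzymes act on methylated cytosine, which in most mammalian DNA lies in the dinucleotide CG, and methylation itself was not measured in these libraries. Promoter windows of 6 members are shown: the 3 class 3 ligands with the largest rises in TMut, both neuropilins, which moved apart in TMut, and Sema5b, the member that fell in both mutant genotypes. Each runs from 250 bases before to 50 bases after the start of the gene, 5′ to 3′, in RefSeq's GRCm38.p6 build, with every CG in capitals. The expression data were aligned to mm39, so the coordinates apply to the sequences only.
Sema3a, chr5:13396534-13396833, plus strand: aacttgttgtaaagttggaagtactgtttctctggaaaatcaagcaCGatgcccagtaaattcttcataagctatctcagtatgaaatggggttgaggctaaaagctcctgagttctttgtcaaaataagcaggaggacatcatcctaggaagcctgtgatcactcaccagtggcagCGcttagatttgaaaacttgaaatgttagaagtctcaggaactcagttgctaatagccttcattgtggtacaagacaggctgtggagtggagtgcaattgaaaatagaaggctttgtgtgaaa
Sema3c, chr5:17574566-17574865, plus strand: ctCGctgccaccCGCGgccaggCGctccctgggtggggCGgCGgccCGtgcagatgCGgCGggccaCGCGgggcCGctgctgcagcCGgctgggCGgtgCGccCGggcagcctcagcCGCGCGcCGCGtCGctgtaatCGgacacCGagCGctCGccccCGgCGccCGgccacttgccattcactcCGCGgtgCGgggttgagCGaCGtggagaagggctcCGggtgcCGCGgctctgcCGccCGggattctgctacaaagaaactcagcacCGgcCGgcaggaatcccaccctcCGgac
Sema3e, chr5:14025026-14025325, plus strand: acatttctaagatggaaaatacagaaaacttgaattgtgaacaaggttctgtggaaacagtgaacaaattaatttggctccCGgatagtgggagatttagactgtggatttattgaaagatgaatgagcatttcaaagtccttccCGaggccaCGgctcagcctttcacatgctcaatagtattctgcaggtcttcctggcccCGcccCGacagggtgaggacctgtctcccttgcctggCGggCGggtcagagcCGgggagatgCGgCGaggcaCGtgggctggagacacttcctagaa
Nrp1, chr8:128358823-128359122, plus strand: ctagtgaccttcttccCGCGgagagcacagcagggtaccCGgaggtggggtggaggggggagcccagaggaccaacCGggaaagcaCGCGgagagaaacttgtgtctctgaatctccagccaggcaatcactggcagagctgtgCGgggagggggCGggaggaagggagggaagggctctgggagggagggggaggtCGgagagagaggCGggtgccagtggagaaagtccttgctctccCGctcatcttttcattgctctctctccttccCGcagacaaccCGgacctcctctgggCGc
Nrp2, chr1:62703067-62703366, plus strand: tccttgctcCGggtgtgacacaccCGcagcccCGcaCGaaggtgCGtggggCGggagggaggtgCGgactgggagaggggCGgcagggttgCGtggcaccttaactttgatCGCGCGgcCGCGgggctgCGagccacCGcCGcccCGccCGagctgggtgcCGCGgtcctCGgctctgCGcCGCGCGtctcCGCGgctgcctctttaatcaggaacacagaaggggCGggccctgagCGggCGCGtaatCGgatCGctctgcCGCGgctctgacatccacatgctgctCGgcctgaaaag
Sema5b, chr16:35541112-35541411, plus strand: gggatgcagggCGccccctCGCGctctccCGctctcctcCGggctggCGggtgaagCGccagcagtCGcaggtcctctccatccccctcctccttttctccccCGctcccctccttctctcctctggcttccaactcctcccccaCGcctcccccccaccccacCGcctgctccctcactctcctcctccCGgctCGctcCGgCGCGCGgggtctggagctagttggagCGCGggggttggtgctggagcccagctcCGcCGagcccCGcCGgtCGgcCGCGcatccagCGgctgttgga

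These windows held 2 CG in Sema3a, 42 in Sema3c, 11 in Sema3e, 14 in Nrp1, 37 in Nrp2 and 27 in Sema5b. The motif searched was CG, which reads the same on both strands. Of all 32851 RefSeq promoter windows of this length, 94.6% held at least 1 CG, with a median of 7 and quartiles of 3 and 20. At least as many CG as in Sema3c were found in 3.03% of them and at least as many as in Sema3a in 85.9%. Sema3e lay between them, with at least as many in 41.4%.

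TFoCa lines were first compared with WT lines. In TFoCa 5 of 7 secreted ligands and both neuropilins rose, while most membrane-bound ligands and plexins did not pass the test. Of 31 members 9 rose, against a background of 5.25% of all genes tested, and 1 fell, against 3.52%. The median log2 fold change of the 7 class 3 ligands was 1.28. Plxna2 was the 1 of 9 plexins that rose, and among 13 membrane-bound ligands Sema5a rose and Sema5b fell. By side, 6 of 20 ligands rose and 1 fell (median 0.17), and 3 of 11 receptors rose and 0 fell (median 0.26), where the median over all genes tested was -0.02. Both medians moved with the TFoCa lines: without TFoCa replicate 2 the ligand median was 0.37 and the receptor median 0.62, and without TFoCa replicate 1 they were 0.22 and 0.05.

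**Figure D1:**
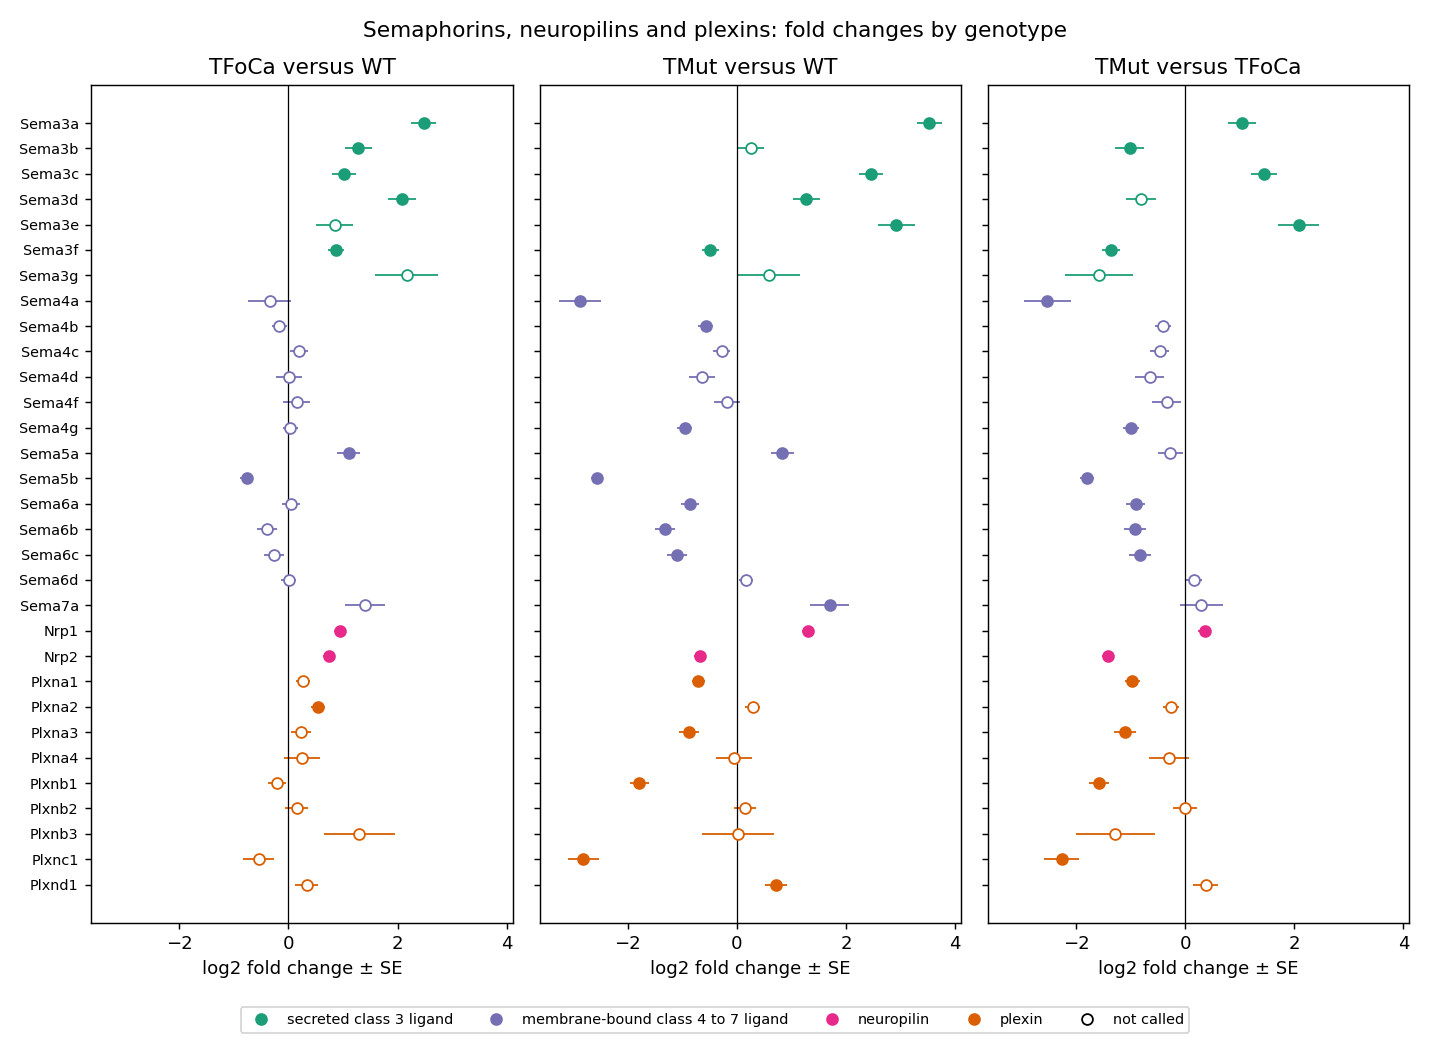
Log2 fold change with its SE (x axis) of all 31 members (rows, grouped by role) in the 3 comparisons. Filled points are called and open points are not; class 3 ligands lie to the right of 0 in TFoCa versus WT, and most membrane-bound ligands and plexins lie to the left of 0 in TMut versus TFoCa.

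Sema3a, the repulsive ligand that collapses growth cones, had normalized counts of 197, 299.8 and 353 in WT, 1479 and 1604 in TFoCa, and 3269 and 3087 in TMut. All TFoCa and TMut libraries lay above the WT libraries, and TMut above TFoCa. Its rise in TFoCa was 2.48 ± 0.23 (adjusted p = 0.00242). Nrp1, the binding receptor of Sema3a, had 1328, 1304 and 1273 in WT, 2327 and 2709 in TFoCa, and 3376 and 3065 in TMut. The 3 genotypes did not overlap, and the rise of Nrp1 in TFoCa was 0.95 ± 0.11 (adjusted p = 0.00402).

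Sema3d, a ligand known from heart, vessel and neural crest development, had 118, 115 and 109 in WT, 420.5 and 562 in TFoCa, and 343 and 223 in TMut. It was higher in both TFoCa libraries than in any other library, with a rise of 2.08 ± 0.25 (adjusted p = 0.00498) against WT. Nrp2, the receptor that prefers Sema3f, had 6074, 6953 and 6191 in WT, 10718 and 10637 in TFoCa, and 3739 and 4281 in TMut. TFoCa libraries lay above WT and TMut libraries below it, and the rise in TFoCa was 0.74 ± 0.10 (adjusted p = 0.00819).

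Sema3f, a repellent of axons and migrating cells, had 2487, 2697 and 2810.4 in WT, 5762 and 4118 in TFoCa, and 1853 and 1958 in TMut, the same order of genotypes as Nrp2. It rose in TFoCa by 0.87 ± 0.15 (adjusted p = 0.0136). Sema3c, which can attract axons, had 271, 344 and 242 in WT, 685 and 475 in TFoCa, and 1455 and 1656 in TMut and rose by 1.01 ± 0.22 (adjusted p = 0.0301). Sema3b had 83.2, 110.3 and 98.9 in WT, 253 and 220.3 in TFoCa, and 111 and 122 in TMut and rose by 1.28 ± 0.24 (adjusted p = 0.0202); the TFoCa libraries stood alone above the others. The remaining 2 class 3 ligands, Sema3e and Sema3g, were not called: Sema3e differed by 0.84 ± 0.34 (adjusted p = 0.172) and Sema3g by 2.17 ± 0.57 (adjusted p = 0.0572). Sema3g had 17.3, 13.9 and 17.3 in WT, 38.3 and 148 in TFoCa, and 25.3 and 24.01 in TMut, so that its difference lay mostly in TFoCa replicate 2. Sema3e differed by 0.27 without TFoCa replicate 1 and by 1.42 without TFoCa replicate 2, where it was called (adjusted p = 0.0260). In all 7 class 3 genes both TFoCa libraries were above all 3 WT libraries; over the family this held for 14 members, and for 2 in the other direction, against 21% and 24.2% of all genes tested.

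**Figure D2:**
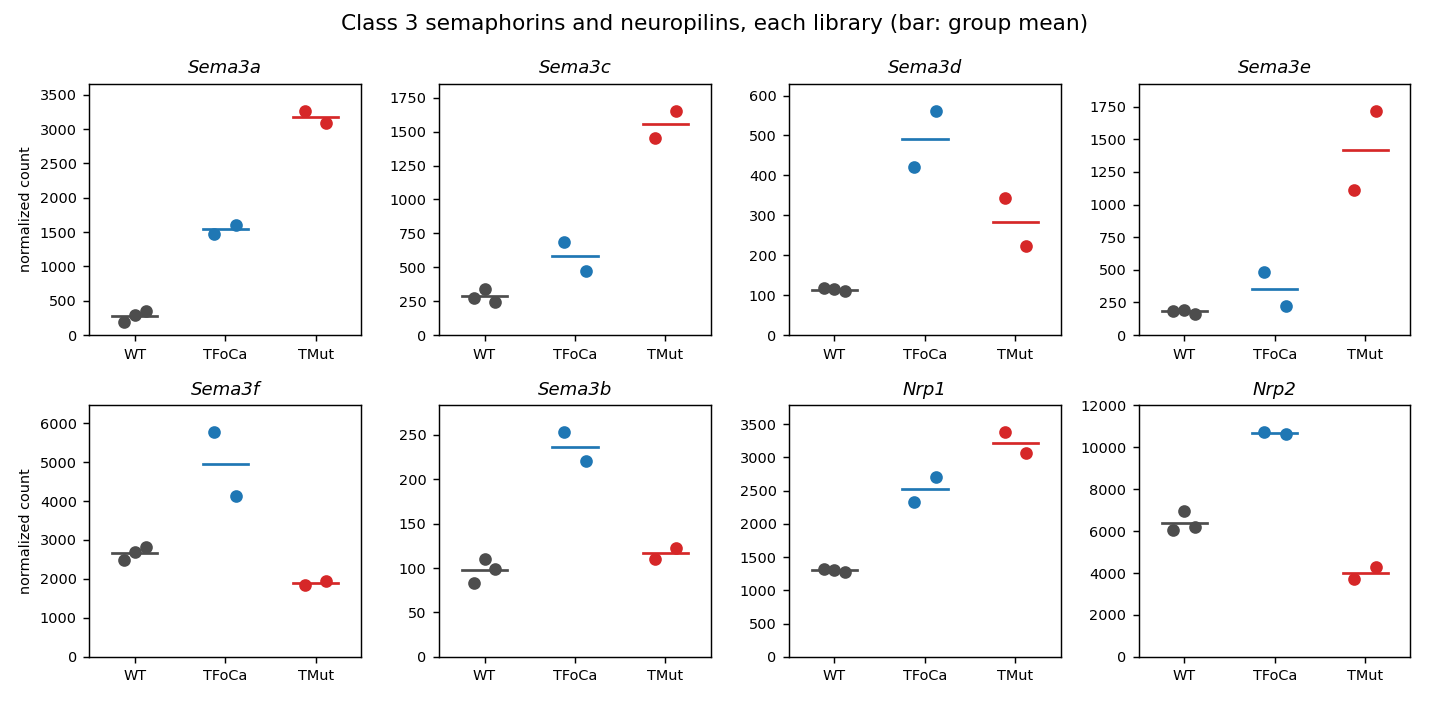
Normalized count (y axis, from 0) of 6 class 3 ligands and both neuropilins in each library (points) with the group mean (bar), by genotype. Sema3a and Nrp1 are lowest in WT and highest in TMut, whereas Sema3f and Nrp2 are highest in TFoCa and lowest in TMut.

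Sema5a and Sema5b, transmembrane ligands with thrombospondin repeats, moved apart. Sema5a had 1079, 1029 and 1154 in WT, 2015 and 2715 in TFoCa, and 2428 and 1538 in TMut and rose in TFoCa by 1.11 ± 0.21 (adjusted p = 0.0194). Sema5b had 6803, 7332 and 7212 in WT, 4040.2 and 4337 in TFoCa, and 1345 and 1085 in TMut, with no overlap between any of the genotypes, and fell in TFoCa by 0.76 ± 0.11 (adjusted p = 0.00996). Plxna2, a receptor of class 6 semaphorins and a partner of neuropilins, had 1882, 1882 and 2164 in WT, 3021 and 2726 in TFoCa, and 2718 and 2142 in TMut and rose by 0.54 ± 0.13 (adjusted p = 0.0479).

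Calls in this comparison depended on the WT lines. With 1 WT library left out, 4 members rose without replicate 1, 4 without replicate 2 and 5 without replicate 3, in place of 9. Over all genes the number that rose went from 952 to 510, 375 and 455 in the same settings. Sema3a, Sema3d, Nrp1 and Nrp2 were called without each library in turn. Plxna2 lost its call without any 1 of the WT or TFoCa libraries (adjusted p = 0.0655 to 0.15). Sema3b and Sema3c lost theirs without WT replicate 1, 2 or 3 or TFoCa replicate 1 (at most adjusted p = 0.0752 and 0.0990), Sema3f without WT replicate 1 (0.0507) or 2 (0.0551), and Sema5a without WT replicate 1, 2 or 3 or TFoCa replicate 2 (at most 0.0738). Without TFoCa replicate 1, 3 members fell in place of 1, with Sema6b and Sema6c called beside Sema5b, and Sema3g, Sema4c and Sema7a were called higher while Sema3b, Sema3c and Plxna2 were not. Without TFoCa replicate 2, Sema3e, Plxna4 and Plxnd1 were called higher, and Sema7a was called higher with either TMut library left out. In TFoCa 9 of 10 mesenchymal, 2 of 6 epithelial, 2 of 6 neural crest and 1 of 7 oligodendrocyte lineage markers rose against WT. In the other direction 7 of 7 pluripotency markers (median log2 fold change -3.53), 2 of 12 neural stem cell markers and 1 of 7 endothelial markers fell. The part of these markers in the result was not tested.

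TMut lines were then compared with WT lines. Here the family split: 8 members rose, against a background of 18.4% of all genes tested, and 13 fell, against 20.4%. As shares of the family these were 25.8% and 41.9%. Among class 3 ligands 4 rose and 1 fell (median log2 fold change 1.27), among the 13 membrane-bound ligands 2 rose and 7 fell (median -0.64), and among the 9 plexins 1 rose and 4 fell (median -0.05). By side, 6 of 20 ligands rose and 8 fell (median -0.23), and 2 of 11 receptors rose and 5 fell (median -0.05). The receptor median was -0.60 without TMut replicate 2 and -0.36 with genes under a mean of 50 left out. The median over all genes was 0.0022. TMut libraries lay above all WT libraries in 11 members and below them in 15, against 33.4% and 33.6% of all genes.

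The largest rises were those of 3 secreted ligands. Sema3a rose by 3.52 ± 0.23 (adjusted p = 0.000109) and Sema3c by 2.46 ± 0.22 (adjusted p = 0.000242). Sema3e, the ligand of Plxnd1, had 187, 195 and 163 in WT, 486 and 219 in TFoCa, and 1114 and 1719 in TMut, with the TMut libraries alone far above the rest, and rose by 2.93 ± 0.34 (adjusted p = 0.000668). Sema3d rose by 1.27 ± 0.25 (adjusted p = 0.00614), and its difference between TMut and TFoCa, -0.81 ± 0.28 (adjusted p = 0.0529), was not called. Sema3f went the other way and fell by 0.48 ± 0.15 (adjusted p = 0.0352); it lost this call without any 1 of the WT or TMut libraries (largest adjusted p = 0.13). Sema3b, at 0.26 ± 0.24 (adjusted p = 0.426), and Sema3g, at 0.59 ± 0.57 (adjusted p = 0.449), were not called.

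The neuropilins parted in TMut. Nrp1 rose by 1.30 ± 0.11 (adjusted p = 0.000200) and Nrp2 fell by 0.68 ± 0.10 (adjusted p = 0.00207). Levels of different genes were set side by side per kb of exon. This holds only roughly, since the length merges all annotated exons of a gene and the transcripts in use are not known. On this scale the ratio of Nrp1 to Nrp2 was 0.265, 0.227 and 0.249 in WT, 0.263 and 0.308 in TFoCa, and 1.09 and 0.866 in TMut. The ratio of Sema3a to Sema3f, each the preferred ligand of 1 of them, was 0.0297, 0.0417 and 0.0471 in WT, 0.0962 and 0.146 in TFoCa, and 0.661 and 0.591 in TMut. Both ratios were higher in the 2 TMut libraries than in all others; no test was made of these ratios.

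Among membrane-bound ligands the largest fall was that of Sema4a, which acts in immune and retinal cells, with 414, 437 and 465 in WT, 473 and 251 in TFoCa, and 39.2 and 88.8 in TMut and a change of -2.87 ± 0.39 (adjusted p = 0.00123). Sema5b fell by 2.56 ± 0.11 (adjusted p = 4.34e-05). The class 6 ligands, which signal to A-class plexins and also act as receptors themselves, fell in 3 of 4 cases. Sema6a had 5363, 4455 and 4460.0 in WT, 4488 and 5363 in TFoCa, and 3086 and 2216 in TMut and fell by 0.86 ± 0.17 (adjusted p = 0.00565). Sema6b had 1089, 1108 and 942 in WT, 953 and 657 in TFoCa, and 415 and 420.2 in TMut and fell by 1.32 ± 0.18 (adjusted p = 0.00127). Sema6c had 5065, 4713 and 4291 in WT, 4843 and 3102 in TFoCa, and 2258 and 2117 in TMut and fell by 1.10 ± 0.18 (adjusted p = 0.00281). TMut libraries were below all WT and TFoCa libraries in each of these genes. Sema6d differed by 0.16 with a 95% interval of -0.14 to 0.47.

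Of the 6 class 4 ligands 3 fell. Sema4g had 3571, 3539 and 3325 in WT, 3825 and 3320.3 in TFoCa, and 2046 and 1574 in TMut and fell by 0.95 ± 0.13 (adjusted p = 0.00137). Sema4b had 1797, 2025 and 1703 in WT, 1799 and 1489 in TFoCa, and 1151 and 1329 in TMut and fell by 0.57 ± 0.14 (adjusted p = 0.0135), a call lost without WT replicate 2 (0.0558) or TMut replicate 1 (0.0767). Sema4c, Sema4d and Sema4f were not called, with 95% intervals, not adjusted for the number of genes, of -0.64 to 0.09, -1.20 to -0.09 and -0.75 to 0.38. Sema4c was called lower with either TFoCa library left out, and Sema4d without TMut replicate 2. Sema7a, which is held to the membrane by a lipid anchor, was 1 of 2 membrane-bound ligands that rose. It had 467, 521 and 571 in WT, 951 and 1982 in TFoCa, and 2389 and 1189 in TMut and rose by 1.70 ± 0.36 (adjusted p = 0.00839), and the 2 lines of each mutant genotype differed more from each other than the lower of them did from the WT libraries. Sema5a, the other, rose by 0.83 ± 0.21 (adjusted p = 0.0166) and lost its call without WT replicate 2 (0.0547) or TMut replicate 1 (0.0879).

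Plexins fell in 3 of their 4 classes. Plxnc1, the receptor of Sema7a, had 1269, 1344 and 1353 in WT, 777 and 1050.4 in TFoCa, and 269.5 and 131 in TMut and fell by 2.81 ± 0.29 (adjusted p = 0.000403), while its ligand rose. Plxnb1, the receptor of Sema4d, had 9642, 9709 and 9953 in WT, 9922 and 7153 in TFoCa, and 3287 and 2447 in TMut and fell by 1.78 ± 0.17 (adjusted p = 0.000298). Plxna1 and Plxna3 transmit class 3 signals together with neuropilins. Plxna1 had 10375, 12090.3 and 12112 in WT, 15291 and 12445 in TFoCa, and 6744 and 7414 in TMut and fell by 0.70 ± 0.13 (adjusted p = 0.00407). Plxna3 had 3792, 4388 and 4511 in WT, 5571 and 4374 in TFoCa, and 2789 and 1884 in TMut and fell by 0.88 ± 0.19 (adjusted p = 0.00808), a call lost without TMut replicate 2 (0.0509). TMut libraries lay below all others in these 4 genes.

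Plxnd1, the receptor of Sema3e, was the plexin that rose. It had 2551, 2114 and 2059 in WT, 3649 and 2176 in TFoCa, and 3811 and 3535 in TMut, with TFoCa replicate 1 in the range of TMut and TFoCa replicate 2 in that of WT. Its rise in TMut was 0.72 ± 0.21 (adjusted p = 0.0296), and the call was lost without WT replicate 2 (0.0847) or 3 (0.0909) or without TMut replicate 1 (0.115) or 2 (0.0918). Plxna2, Plxna4, Plxnb2 and Plxnb3 were not called. Plxnb2, a receptor of class 4 ligands, ranged from 15925 to 26473 over the libraries, both ends in TFoCa, and its 95% interval in TMut versus WT was -0.33 to 0.62. Plxnb3 was near the filter in every library, with 6.28, 6.34 and 9.2 in WT, 24.9 and 14.6 in TFoCa, and 3.46 and 14.4 in TMut.

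**Figure D3:**
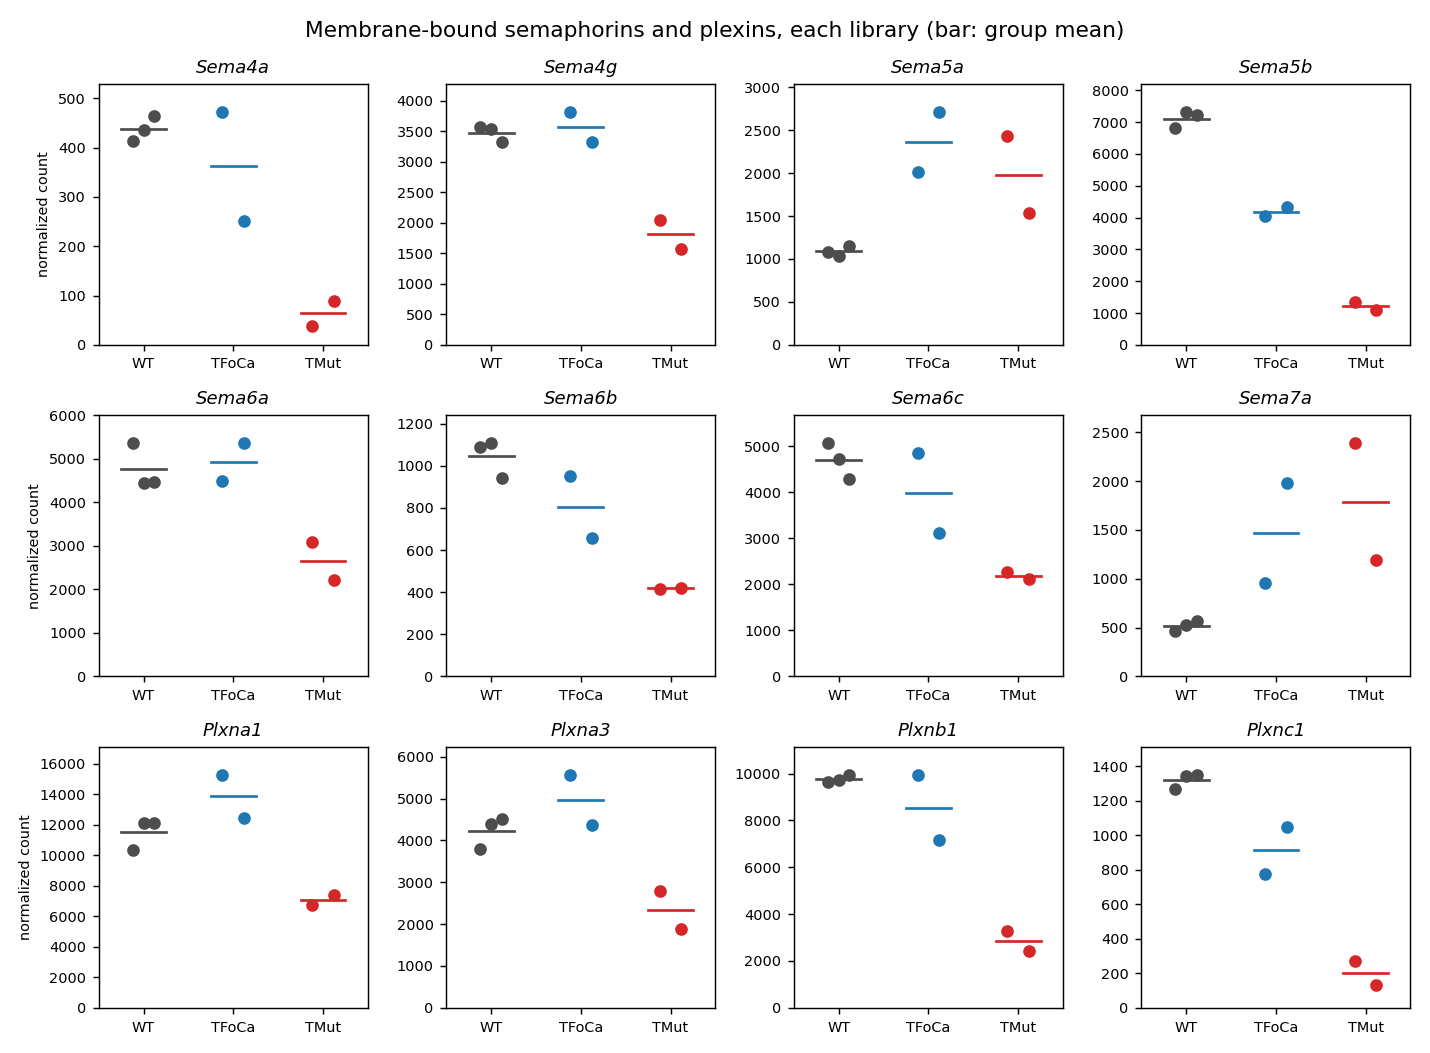
Normalized count (y axis, from 0) of 8 membrane-bound ligands and 4 plexins in each library (points) with the group mean (bar), by genotype. TMut is lowest for Sema4a, Sema4g, Sema5b, Sema6a, Sema6b, Sema6c and the 4 plexins, while Sema5a and Sema7a are lowest in WT.

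The neuronal, astrocyte and oligodendrocyte lineage markers fell in the same TMut libraries (8 of 8, 5 of 5 and 5 of 7 measured; the astrocyte sum was 4629 to 5437 in WT and 1153 to 1601 in TMut, the oligodendrocyte lineage sum 7403 to 8170.0 and 1824 to 1965), as did 9 of 12 neural stem cell markers, and their part in the falls of ligands and plexins was not tested. Beside Vim, 5 of 6 epithelial, 4 of 10 mesenchymal, 2 of 6 neural crest, 2 of 7 endothelial and 1 of 7 pluripotency markers rose in TMut. In these lists 2 mesenchymal markers and 1 endothelial marker fell. The part of these markers in the rises of ligands and receptors was not tested either.

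TMut was also set directly against TFoCa, which is the test of whether the 2 mutant genotypes differ, since both are otherwise compared with the same WT libraries. Against TFoCa, 4 members rose in TMut, against a background of 17.3%, and 13 fell, against 18.5%. Among ligands 3 of 20 rose and 8 fell (median -0.73), and among receptors 1 of 11 rose and 5 fell (median -0.96, and -0.42 without TMut replicate 1 or -0.63 with genes under a mean of 50 left out). TMut libraries lay above both TFoCa libraries in 4 members and below them in 20, against 33.9% and 33.5% of all genes. Markers moved in this comparison too: 7 of 7 pluripotency, 5 of 6 epithelial, 3 of 6 neural crest and 3 of 7 endothelial markers rose in TMut against TFoCa. In the other direction 7 of 8 neuronal, 9 of 12 neural stem cell, 5 of 10 mesenchymal, 3 of 5 astrocyte, 5 of 7 oligodendrocyte lineage and 1 of 7 endothelial markers fell. Their part in the family's differences was not tested.

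Sema3e was higher in TMut than in TFoCa by 2.08 ± 0.38 (adjusted p = 0.00594), Sema3c by 1.44 ± 0.24 (adjusted p = 0.00449), Sema3a by 1.04 ± 0.25 (adjusted p = 0.0169) and Nrp1 by 0.36 ± 0.12 (adjusted p = 0.0491). The difference in Nrp1 was small and lost its call without any 1 library but TFoCa replicate 2. That of Sema3a was lost without TFoCa replicate 1 (0.0565), TMut replicate 1 (0.0595) or TMut replicate 2 (0.0668), so that 2 members rose with either TMut library left out. Nrp2 was lower in TMut than in TFoCa by 1.42 ± 0.11 (adjusted p = 0.00132) and Sema3f was lower by 1.35 ± 0.16 (adjusted p = 0.00195). Sema3b was lower by 1.01 ± 0.27 (adjusted p = 0.0226), a call lost without TFoCa replicate 1 (0.0706) or TMut replicate 1 (0.0662) or 2 (0.0628).

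The 10 other members that fell were Sema4a, Sema4g, Sema5b, Sema6a, Sema6b, Sema6c, Plxna1, Plxna3, Plxnb1 and Plxnc1. Their log2 fold changes ranged from -2.52 for Sema4a to -0.83 for Sema6c, whose call was lost without TMut replicate 2 (0.0809). Further members were called with 1 library left out: Sema3d, Sema3g and Sema4c lower and Plxnd1 higher without TFoCa replicate 1, Sema4b and Plxna4 lower without TFoCa replicate 2, Sema3d lower without TMut replicate 1, and Sema4d lower without TMut replicate 2. Of the 10, 9 were not called between TFoCa and WT, the exception being Sema5b.

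Over the 3 comparisons 23 of 31 members were called at least once (49.8% of all genes tested) and 8 were not, namely Sema3g, Sema4c, Sema4d, Sema4f, Sema6d, Plxna4, Plxnb2 and Plxnb3. Against WT, 5 members rose in both mutant genotypes (Sema3a, Sema3c, Sema3d, Sema5a and Nrp1), as did 3.72% of all genes. Sema5b fell in both, as did 1.11% of all genes, and 2 members, Sema3f and Nrp2, rose in TFoCa and fell in TMut, as did 0.149%. Both mutant genotypes share the WT libraries, so these counts are not independent. Among the 8, Sema4c, a ligand of Plxnb2, had 3889.7, 3648 and 4154 in WT, 3669.6 and 5389 in TFoCa, and 3181 and 3252 in TMut. Sema4d, the ligand of Plxnb1, had 995, 1251 and 967 in WT, 1239 and 920.2 in TFoCa, and 533 and 868 in TMut, and Sema4f had 318, 332 and 278 in WT, 441 and 265 in TFoCa, and 260.3 and 283 in TMut. None of these 3 ligands passed the test in any of the 3 comparisons with all libraries. Sema6d, which signals through Plxna1, had 1579, 1639.8 and 1525 in WT, 1778 and 1408 in TFoCa, and 1882 and 1665 in TMut. Plxna4, a partner of Nrp1 in Sema3a signalling, had 342, 292 and 338 in WT, 590.0 and 248 in TFoCa, and 318 and 307 in TMut, with a 95% interval of -0.53 to 1.02 in TFoCa versus WT and -0.82 to 0.73 in TMut versus WT.

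Per kb of exon, plexins made up most of the receptor level in every library. Plxnb2 had the highest mean level in each genotype, 2407 ± 231 normalized counts per kb in WT (SD, n = 3), 2746 ± 966 in TFoCa and 2663 ± 223 in TMut (SD, n = 2 each), followed by Plxna1. In WT the next levels were those of Plxnb1 (1018 ± 17.1), Sema5b (1005 ± 39.1) and Sema4c (849 ± 55.1); Plxnb1 and Sema5b did not differ beyond their spread. In TMut Plxnb1 (299 ± 62.0) was at rank 11 of the 31 and Sema5b (172 ± 25.97) at rank 17, whereas Sema3a (229 ± 9.29) was at rank 13, from 26 in WT. Sema7a (542 ± 257) was at rank 4 by its mean, from 16 in WT, but its TMut lines were at 724 and 360.4, and in TMut replicate 2 it lay below Plxnd1, Sema3f and Nrp2.

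Summed over its members, the level of class 3 ligands per kb was 586, 649 and 655 in WT, 1474 and 1142 in TFoCa, and 985 and 1073 in TMut. The percentage of it that came from Sema3f was 81.7, 79.9 and 82.6 in WT, 75.2 and 69.4 in TFoCa, and 36.2 and 35.1 in TMut. The percentage from Sema3a was 2.42, 3.33 and 3.89 in WT, 7.24 and 10.1 in TFoCa, and 23.9 and 20.7 in TMut. In TMut the class 3 level lay above WT while the share of Sema3f was smaller in both libraries than in any other. The summed level of the neuropilins was 649, 720.4 and 653 in WT, 1143 and 1175 in TFoCa, and 661 and 675 in TMut, higher in TFoCa and in the range of WT in TMut, where the opposite changes of Nrp1 and Nrp2 met. For the 13 membrane-bound ligands it was 4892, 4853 and 4721 in WT, 4594 and 4828 in TFoCa, and 3318 and 2777 in TMut, and for the plexins 5926, 5846 and 5747 in WT, 7674 and 5341 in TFoCa, and 4683 and 4782 in TMut. TFoCa replicate 1 stood above all others in plexins, with Plxnb2 as its largest term. The ratio of all ligands to all receptors per kb was 0.833, 0.838 and 0.84 in WT, 0.688 and 0.916 in TFoCa, and 0.805 and 0.706 in TMut; WT lines differed little, and the 2 TFoCa lines lay on opposite sides of them.

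**Figure D4:**
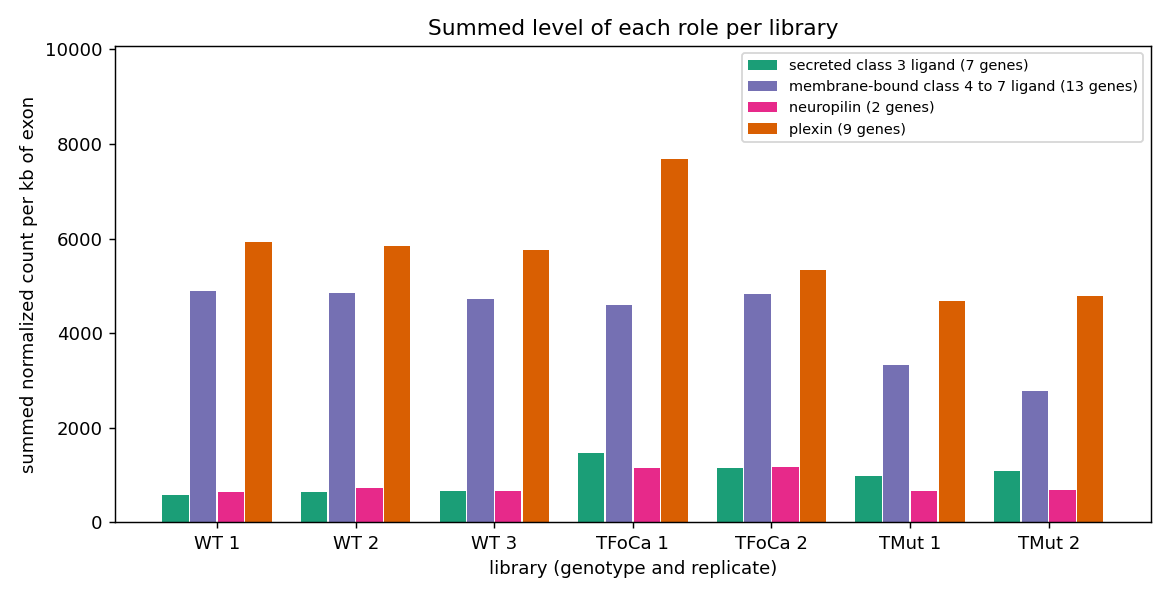
Summed normalized count per kb of exon (y axis, from 0) of the 4 roles in each library (x axis). Class 3 ligands are higher in all 4 mutant libraries than in WT, neuropilins are higher in TFoCa, and membrane-bound ligands are lower in TMut.

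Promoter windows were found for 26 of 31 members; Sema3b, Sema3f, Sema6a, Plxna1 and Plxna4 had no entry. Taking for each gene its window with most CG, the 8 members that rose in TMut against WT had a median of 18.5 CG (2 to 42), the 10 that fell a median of 28.5 (14 to 37), and the 8 not called a median of 11 (3 to 30). In TFoCa versus WT the 7 that rose had a median of 23 (2 to 42), the 18 not called also 23 (3 to 36), and Sema5b, which fell, 27. The ranges overlapped, and no test was made, since the members share ancestry and were not sampled. No window of a gene that fell in TMut, at its richest, held fewer than 14 CG, while those of Sema3a, Sema3d and Sema3e, which rose, held 2, 8 and 11. Other windows of Sema4a, Sema6b and Sema6c, which fell, held as few as 4, 6 and 3. The 14 CG are those of the richest of 4 windows of Sema4a. Each of the 8 members that rose had only 1 window, so taking the richest could not raise their numbers. Sema3f, Sema6a and Plxna1, which had no entry, all fell in TMut against WT.

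**Figure D5:**
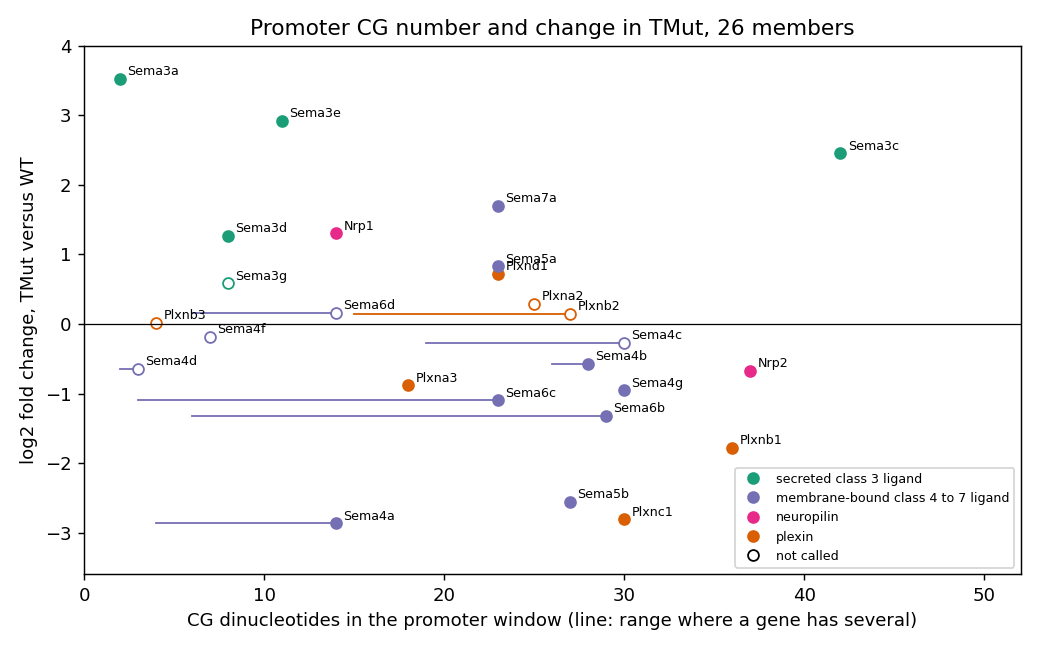
Number of CG in the promoter window (x axis; a line spans genes with several windows) against the log2 fold change in TMut versus WT (y axis) for 26 members. Points stand at the window with most CG, where genes that fell lie between 14 and 37 and genes that rose between 2 and 42; the lines of Sema4a, Sema6b and Sema6c, which fell, reach down to 4, 6 and 3.

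Other genes of semaphorin signalling were taken from a list of 52, of which 49 were tested. The shares of all genes called higher and lower were 5.25% and 3.52% in TFoCa versus WT, 18.4% and 20.4% in TMut versus WT, and 17.3% and 18.5% in TMut versus TFoCa. In TFoCa versus WT 10 of the 49 rose and 0 fell (median 0.06), in TMut versus WT 17 rose and 12 fell (median 0.13), and in TMut versus TFoCa 8 rose and 12 fell (median -0.01). Itga1, an integrin chain that pairs with the Sema7a receptor Itgb1, had 379, 337 and 474 in WT, 2343 and 2053 in TFoCa, and 4056 and 3875 in TMut, and rose by 2.48 ± 0.16 (adjusted p = 0.00124) in TFoCa and by 3.33 ± 0.16 (adjusted p = 4.65e-05) in TMut. Rras, a GTPase on which plexins act as GTPase-activating proteins, rose by 0.87 ± 0.11 (adjusted p = 0.00601) in TFoCa and by 1.44 ± 0.11 (adjusted p = 0.000162) in TMut. Mical2, an oxidase of actin, rose by 1.73 ± 0.18 (adjusted p = 0.00318) in TFoCa and by 1.18 ± 0.18 (adjusted p = 0.00208) in TMut. The integrin chain Itgb4 rose by 1.54 ± 0.19 (adjusted p = 0.00558) in TFoCa and by 1.32 ± 0.19 (adjusted p = 0.00160) in TMut. Neither Mical2 nor Itgb4 was called in TMut versus TFoCa (adjusted p = 0.0630 and 0.461).

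The CRMP phosphoproteins, which relay Sema3a signals to microtubules, fell in TMut in 4 of 5 cases against WT, where 20.4% of all genes fell, and in 4 of 5 against TFoCa, where 18.5% did. In TFoCa versus WT, where 3.52% of all genes fell, 0 of 5 were called. Dpysl5 had 11424, 11000.0 and 11794 in WT, 8075 and 7759 in TFoCa, and 2202 and 1174 in TMut, and its change in TMut versus WT was -2.82 ± 0.23 (adjusted p = 0.000182). Crmp1 had 17703, 17313 and 17886 in WT, 12923 and 12087 in TFoCa, and 5733 and 3682 in TMut and changed by -1.94 ± 0.17 (adjusted p = 0.000239). These falls stood beside the rise of Sema3a and Nrp1 in the same libraries, and beside falls of all 8 neuronal markers. L1cam, an adhesion molecule that forms a complex with Nrp1, was lower in TMut than in TFoCa at -2.92 ± 0.32 (adjusted p = 0.00163) on the log2 scale. Rnd3, a GTPase without hydrolysis activity, was lower too, at -0.90 ± 0.11 (adjusted p = 0.00205). Against WT, L1cam changed in TMut by -3.02 ± 0.29 (adjusted p = 0.000314) and was not called in TFoCa. Rnd3 rose in TFoCa against WT by 0.61 ± 0.10 (adjusted p = 0.0125) and was not called in TMut (-0.29 ± 0.10, adjusted p = 0.0554).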

How the data were processed

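Gene expression in mouse neural stem cells was measured by RNA sequencing in 7 libraries (3 WT, 2 TFoCa, 2 TMut), grouped by their titles. The authors' tools, per the submitters' processing notes, include STAR 2.7.3a, Trim Galore 0.6.5, SAMtools, featureCounts and DESeq2, and the build is mm39. The settings and annotation are not given in the sources used here. The deposited table holds DESeq2-normalized counts, a signal made of gene counts divided by the size factor of each library. Whole reads were recovered within 0.001 read for 100% of values. Even numbers made up 70.3% to 79.3% of the counts between 1 and 20, and library totals exceed the reads per sample that the design text states. Whether both mates of a pair were counted was not tested. Count models served as alternatives.

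The 18134 genes that reached a normalized count of 10 in 2 libraries were fitted on log2(value + 1) by limma 3.58.1 (intensity trend, R 4.3.3) in 1 model over 3 genotypes with 4 residual degrees of freedom, and p-values were adjusted over all genes tested by the Benjamini-Hochberg method. On simulated counts, the fit recovered, for TFoCa versus WT, 93% of genes with a change of 1 log2 unit (18115 genes, 9 false calls), 98% in TMut versus WT (18115 genes, 14 false calls) and 95% in TMut versus TFoCa (18105 genes, 10 false calls), and 100% of those changed by 2 in each. The simulated counts had the same spread in every genotype, set by a formula and not estimated from these lines. Only genes with a mean of 50 or more were changed. The recovered shares and false calls therefore do not give the power or the error rate in these data. Exon lengths are merged exons of GENCODE M21 and promoters are from RefSeq, both on GRCm38. The alternatives were other pseudocounts (0.5, 8), filters, normalizations and tests (edgeR 4.0.16, DESeq2 1.42.0), a fit to 2 genotypes, a replicate block and leaving out each library, where a lone library of a genotype is assumed to vary like the others.

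Members were described in full where called in at least 1 comparison with a mean of 100 or more in the higher group. Other pathway genes were named by the 4 smallest adjusted p values in each comparison. The promoters shown and the neighbouring genes were chosen after their values were seen. The members and lists were chosen with earlier results of these data known. Reads of overlapping genes cannot be separated in this table, and strand use in counting is not given in the sources used here.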

Additional observations from a re-analysis of the deposited data

How the results depend on the processing

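No member called by limma changed direction under any of the 18 alternatives run for each comparison. Of the called members, 4 of 10 in TFoCa versus WT, 16 of 21 in TMut versus WT and 12 of 17 in TMut versus TFoCa were called under every alternative. With 1 library left out, 4 to 10 members were higher and 1 to 3 lower in TFoCa versus WT, 6 to 8 and 11 to 14 in TMut versus WT, and 2 to 4 and 12 to 15 in TMut versus TFoCa. With the replicate number as a block, 4 members were higher and 0 lower in TFoCa versus WT, in place of 9 and 1; over all genes 555 were called under this block in place of 1590, and in TMut versus WT 4620 in place of 7043. Sema5b, the member called lower, had an adjusted p of 0.0629 there. Only WT has a replicate 3, so the block takes up that library. Its fold changes against WT equal those without WT replicate 3, for example 0.90 for Sema3c in TFoCa in both settings. The block is thus not separate from leaving out that library, and its lower counts are not an effect of pairing alone. The numbers were not taken to pair lines. Deviations from the group means of same-numbered libraries correlated by 0.0192 to 0.185 across genes, all of them positive. In a genotype with 2 lines the 2 deviations mirror each other, so these correlations cannot exclude pairing. The block moved no other count of members by over 1.5 times. DESeq2 called 2947 genes in TFoCa versus WT in place of 1590. Leaving out a library also changed the calls over all genes, beside which the member counts above are to be read. Without WT replicate 1, 2 or 3, 734, 495 and 638 genes were called in TFoCa versus WT, in place of 1590. In TMut versus WT they were 5916, 4861 and 4802 in place of 7043, and in TMut versus TFoCa 5811, 5018 and 5162 in place of 6491. The ligand median in TFoCa versus WT was 0.37 without TFoCa replicate 2, in place of 0.17. The receptor median moved by more than the median SE of the receptors' log2 fold changes in some settings. In TFoCa versus WT, where it was 0.26, leaving out TFoCa replicate 1 gave 0.05 and leaving out replicate 2 gave 0.62. In TMut versus WT it was -0.36 at a mean of 50 or more or in the fit to 2 genotypes, and -0.60 without TMut replicate 2, in place of -0.05. In TMut versus TFoCa it was -0.63 at a mean of 50 or more and -0.42 without TMut replicate 1, in place of -0.96. Plxnb3 and Sema3g had WT counts under 20, where counting error is largest.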

Other observations

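The class 3 ligands Sema3d, Sema3a, Sema3e and Sema3c lie in that order on chromosome 5 in the RefSeq annotation of GRCm38.p6, a position that the choice of members did not use. All 4 were higher in TMut than in WT, as were 18.4% of all genes tested, and 3 of the 4 were higher in TFoCa, as were 5.25%. Between Sema3d and Sema3c, 3 other genes of the table are annotated. In TMut versus WT 0 of the 3 were called higher and 2 lower, where 20.4% of all genes were lower. In TFoCa versus WT 1 of the 3 was called higher and 0 lower. In TMut versus TFoCa 3 of the 4 ligands were called higher, where 17.3% of all genes were, and Sema3d was not called. All 3 of the other genes were called lower there, where 18.5% of all genes were. The other genes are only 3, and no test of the ligands against them was made. Pclo, which encodes a scaffold of the presynaptic active zone, had 528, 513 and 508 in WT, 463 and 405 in TFoCa, and 114 and 54.0 in TMut. It fell in TMut versus WT, with a log2 fold change of -2.70 ± 0.30 (adjusted p = 0.000545). Cacna2d1, a calcium channel subunit gene, had 1993, 1983 and 2029 in WT, 4085 and 3564 in TFoCa, and 2448 and 1796 in TMut. Its log2 fold change was 0.93 ± 0.14 (adjusted p = 0.0103) in TFoCa versus WT and 0.07 ± 0.14 (adjusted p = 0.739) in TMut versus WT. The predicted gene Gm3510 had low counts, with 3.92, 15.8 and 16.1 in WT, 30.7 and 19.5 in TFoCa, and 0 and 0 in TMut. The 3 genes were named because of their position, after the values of the ligands were seen.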
